A study of Homo sapiens with 6 samples.

Results

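The 35 genes described here encode the core machinery of apoptosis and necroptosis: members of the BCL2 family, caspases and their inhibitors, the adaptors of death receptors and the proteins that carry out cell death. They are a fixed list of symbols with these roles, matched by name among the 29804 gene symbols of an RNA-seq count table. All 35 symbols were in the table, and 34 were expressed highly enough to be tested among the 14672 tested genes. The cells were 22Rv1, a human prostate carcinoma epithelial cell line whose genotype is labelled WT in every sample. WT samples were untreated cells harvested at week 0. Age matched (AM) samples were the same cells after 6 weeks of culture without drug. 6WP samples had 6 weeks of daily phleomycin at 1 µg/ml, given on week days only. Phleomycin is a radiomimetic glycopeptide that breaks both strands of DNA. The groups held 2 libraries each, labelled as biological replicates, and all came from a single line, so the spread between libraries is a spread within that line. The comparison of 6WP with AM cells shares the length of culture, whereas 6WP and WT cells differ in both drug and time. AM and WT cells, both without drug, differ in time. The labels give no batch of harvest or library preparation, so such a batch cannot be told apart from time.

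Apoptosis can begin at mitochondria, where BCL2 proteins that oppose death hold back the pore-forming proteins, and BH3-only proteins release that hold. Once the pores form, cytochrome c leaves the mitochondrion and joins APAF1 and CASP9 in the apoptosome, which activates the executioner caspases. The pathway can also begin at death receptors, where adaptors recruit CASP8, and when caspases are blocked the same receptors can lead to necroptosis through RIPK1, RIPK3 and MLKL. DNA breakage is a classical trigger of the mitochondrial route.

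The libraries held between 21222201 and 35311945 counts. A total of 3 counts, taken as the smallest detectable amount, equalled 0.0850 to 0.141 CPM (counts scaled to the library size, here after TMM normalization), a floor that covers counting error only. The prostate epithelial marker HOXB13 was present in all 6 libraries, with between 10159 and 20407 counts. Of 12 markers of leukocytes, fibroblasts and endothelium, 3 passed the filter on low counts, namely CD68 with 51 to 116 counts, COL1A1 with 34 to 55 and PDGFRB with 1 to 14. PTPRC, CD3E and CDH5 had 0 counts in every library, and the other 6 had between 0 and 9. Replicates of 6WP cells lay further apart than those of the other groups. The median absolute difference between replicates over the tested members was 0.0962 (WT), 0.105 (AM) and 0.274 (6WP) on the log2 CPM scale, against 0.121, 0.129 and 0.278 over all tested genes.

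Levels between genes were compared as CPM per kb of exon, with the length taken as the union of all exons of a gene in GENCODE. CYCS, which encodes cytochrome c, and MCL1, a short-lived protein that opposes death, were the most abundant members in WT cells, at 95.9 and 90.2 CPM per kb. Together they held 51.2% ± 1.42 (WT), 52.3% ± 0.672 (AM) and 50.4% ± 2.09 (6WP, SD with n = 2 each) of the summed CPM of the 35 members. The mitochondrial nuclease ENDOG followed at 54.0 CPM per kb and BAD at 23.1. The death receptor adaptor FADD, at 13.7 CPM per kb, was far above the caspase it recruits, CASP8, at 0.435. The least abundant tested members in WT cells were MLKL at 0.215, BIRC3 at 0.179, HRK at 0.0729 and CASP10 at 0.0353 CPM per kb. RIPK3, the kinase that activates MLKL, had 1 count in WT replicate 2 and 0 counts in the other 5 libraries, and was not tested. The 0 counts allow a level of up to 0.0850 to 0.136 CPM before TMM normalization, depending on the library. In the plot of levels per exon length, the widest gaps between groups are those of MLKL and BIRC3.

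**Figure D1:**
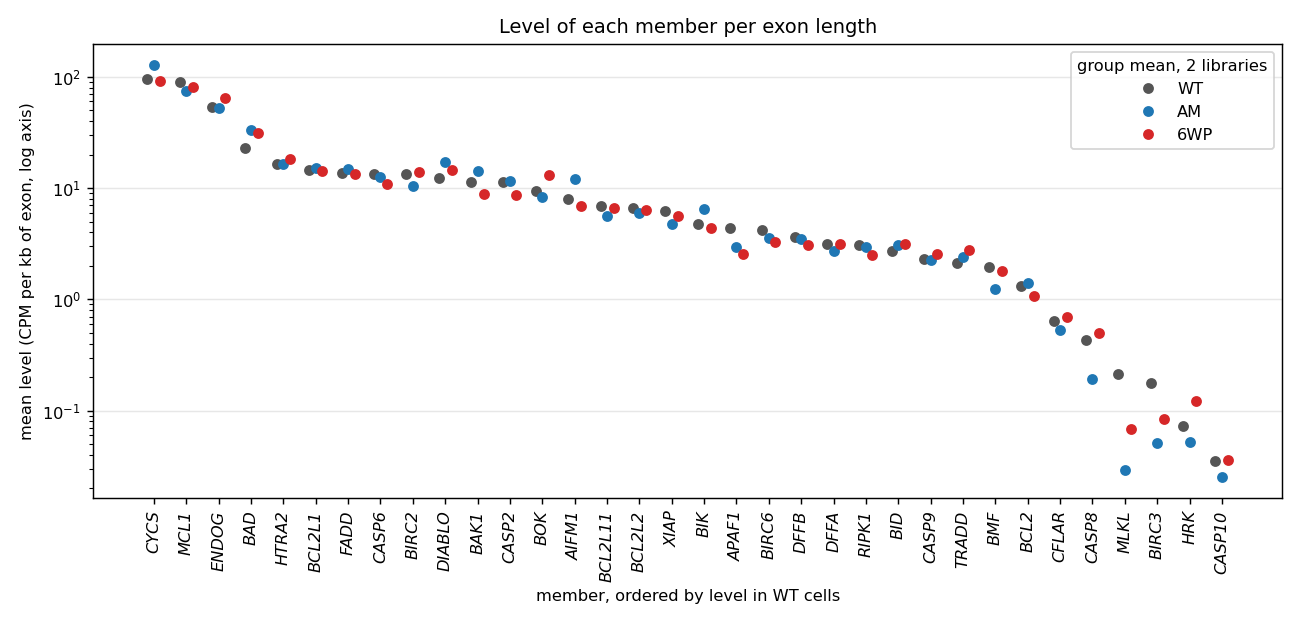
Mean level of 34 members in CPM per kb of exon (log axis) in WT, AM and 6WP cells, 2 libraries per group, ordered by the level in WT cells. RIPK3 is left off because it had 0 counts in 5 of 6 libraries. CYCS and MCL1 stand highest, and MLKL, BIRC3, HRK and CASP10 stand lowest.

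Differences were tested with edgeR's quasi-likelihood test on all 6 libraries, and a gene was called when its adjusted p over the 14672 tested genes was under 0.05. No p below 0.333 is possible in a two-sided exact permutation of 2 libraries against 2, so every call rests on the model. In 6WP against WT cells, 0 of the 34 members were called higher, where 1.63% of all tested genes were, and 1 was called lower (2.94% of the members, against 1.37% of all genes). At an unadjusted p under 0.05, 1 member was higher and 4 were lower. At least 3136 of the 14672 tested genes passed that threshold there. The Wald test of DESeq2 called 0 higher and 1 lower, and the likelihood ratio test of edgeR called 1 higher and 3 lower. These tests called 7.32% and 10.2% of all tested genes. In 6WP against AM cells, 2 members were called higher (5.88%, against 11.7% of all genes) and 3 lower (8.82%, against 9.68%). With upper quartile normalization the split was 4 higher and 2 lower, where 15.5% and 7.24% of all genes were called. In AM against WT cells, 2 members were called higher (5.88%, against 7.74% of all genes) and 5 lower (14.7%, against 9.93%). These shares were near those of all tested genes, so the counts do not set the members apart. The median log2 fold change of the members was -0.05 in 6WP against WT, 0.11 in 6WP against AM and -0.08 in AM against WT cells, beside 0.01, 0.05 and 0.00 over all genes. In bulk RNA, a change in the share of cells that express a gene and a change in RNA per cell cannot be told apart.

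In all, 10 members were called in at least 1 comparison, 3 of them (AIFM1, APAF1 and CASP8) in 2 comparisons, and 24 in none. The comparisons share libraries, so a group that stands apart enters 2 of them. Many calls changed when any 1 library was left out, which leaves its group with 1 library. The losses followed the removal of either library of a group, so they do not point to a particular library. Without WT replicate 1 or WT replicate 2, and likewise without AM replicate 1 or AM replicate 2, 0 members were called in AM against WT and in 6WP against WT cells. Without either AM library, 0 members were called in 6WP against AM cells, and without either WT library 3 were called there. In contrast, leaving out 6WP replicate 1 gave 6, 13 and 15 called members in the comparisons of 6WP with WT, of 6WP with AM and of AM with WT, and leaving out 6WP replicate 2 gave 12, 12 and 15. The share of all tested genes called moved in the same way, for example to 43.9% and 44.7% in AM against WT cells without a 6WP library.

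**Figure D2:**
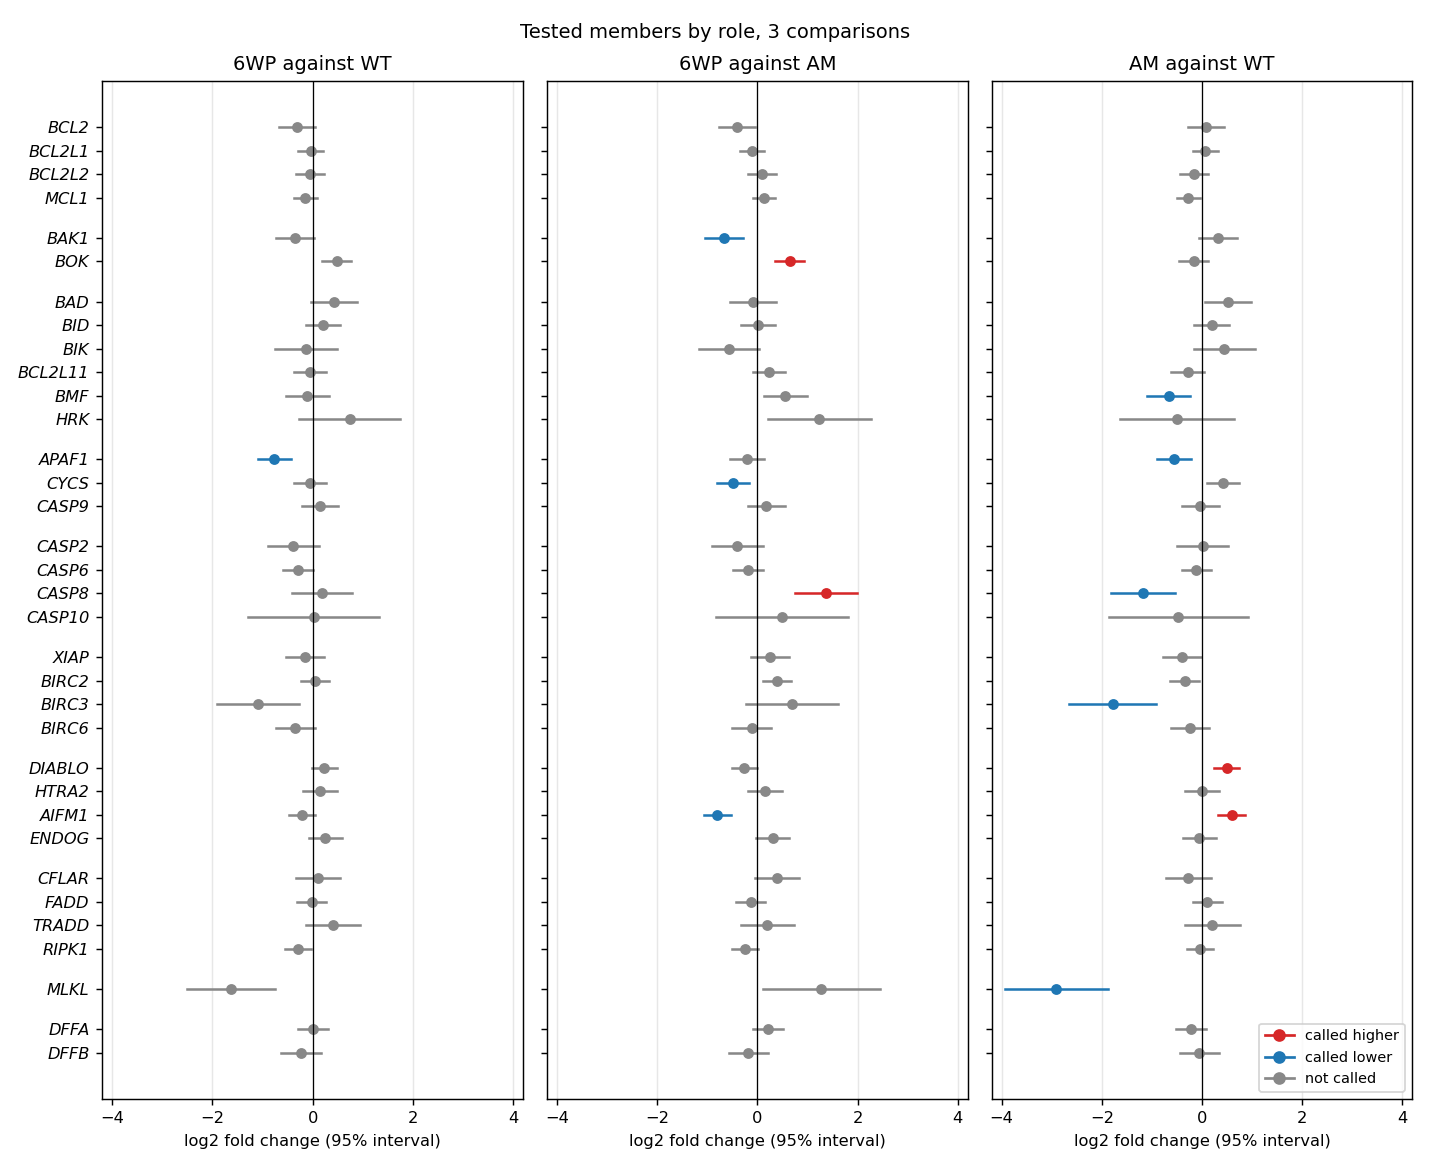
Log2 fold change (points) with 95% interval (lines) of the 34 tested members for 6WP against WT (left), 6WP against AM (middle) and AM against WT cells (right), grouped by role from the BCL2 proteins that oppose death (top) to the DNA fragmentation factor (bottom). Red and blue mark members called higher and lower at an adjusted p under 0.05 in edgeR's quasi-likelihood test. Most intervals include 0, and the widest belong to MLKL, CASP10, HRK and BIRC3, the rarest members.

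The BCL2 proteins that oppose death, which bind and restrain pore-forming and BH3-only proteins, were not called in any comparison. MCL1 was at 561 ± 6.47 (WT), 464 ± 2.68 (AM) and 508 ± 13.3 CPM (6WP, SD with n = 2 each). Its groups did not overlap, with AM lowest and WT highest, and the log2 fold change of AM against WT was -0.28 (95% interval -0.50 to -0.05, adjusted p = 0.0892 in edgeR's quasi-likelihood test). BCL2L1, which encodes BCL-XL, was at 60.9, 63.9 and 59.4 CPM in WT, AM and 6WP cells, and BCL2L2, which shares exons with the readthrough gene BCL2L2-PABPN1, at 31.8, 28.6 and 30.6 CPM. The interval of the log2 fold change of BCL2L1 in 6WP against WT cells ran from -0.28 to 0.21. BCL2 itself was at 16.7, 17.8 and 13.5 CPM, with both 6WP libraries below the other 4, and its log2 fold change in 6WP against AM cells was -0.40 (SE 0.16, adjusted p = 0.104 in the same test). MCL1 made up 80.1% ± 0.377 (WT), 76.8% ± 0.374 (AM) and 79.1% ± 0.658 (6WP) of the summed CPM per kb of these 4 genes.

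The 2 pore-forming members, BAK1 and BOK, went in opposite directions in 6WP against AM cells. BAK1, which opens the outer mitochondrial membrane once activated, was at 25.3 and 24.9 CPM in WT, 32.9 and 30.0 in AM, and 22.8 and 16.6 in 6WP libraries. Every AM library was above every WT library, and both 6WP libraries were lowest. BAK1 fell in 6WP against AM cells, with a log2 fold change of -0.67 (SE 0.17, adjusted p = 0.0259 in edgeR's quasi-likelihood test), and was at -0.35 against WT cells (adjusted p = 0.262). BOK, a relative that resides largely at the endoplasmic reticulum, was at 23.9 and 26.1 CPM in WT, 21.4 and 23.2 in AM, and 33.3 and 36.4 in 6WP cells. Both 6WP libraries were above the other 4. BOK rose in 6WP against AM cells, with a log2 fold change of 0.64 (SE 0.13, adjusted p = 0.0131), and was at 0.48 against WT cells (SE 0.13, adjusted p = 0.0826). The ratio of BOK to BAK1 in CPM per kb was 0.823 ± 0.0599 (WT), 0.587 ± 0.0699 (AM) and 1.51 ± 0.428 (6WP, SD with n = 2 each). BAK1 is on chromosome 6 of GRCh38 from 33572547 to 33580293 and BOK on chromosome 2 from 241551424 to 241574131. Exons of both overlap exons of a gene on the opposite strand, GGNBP1 and BOK-AS1, and the strand setting of the counting is not given in the sources used here. Both calls were lost without AM replicate 1 (adjusted p = 0.175 for BAK1 and 0.128 for BOK) or AM replicate 2 (0.122 and 0.0935), and that of BAK1 also without WT replicate 1 (0.0689) or WT replicate 2 (0.0627) and with only the 2 groups compared (0.0668). For BOK, the adjusted p against WT cells was 0.00580 without 6WP replicate 1 and 0.0300 without 6WP replicate 2.

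Of the 6 BH3-only members, which trigger the mitochondrial route by binding other BCL2 proteins, only BMF was called. BMF was at 9.82 and 11.3 CPM in WT, 6.67 and 6.68 in AM, and 8.64 and 11.03 in 6WP cells. Both AM libraries were below the other 4, and 6WP and WT libraries overlapped. BMF fell in AM against WT cells (log2 fold change -0.66, SE 0.19, adjusted p = 0.0451 in edgeR's quasi-likelihood test), and was at 0.56 in 6WP against AM cells (adjusted p = 0.0656). BMF lies on chromosome 15 from 40087890 to 40108892. Exons of BMF-AS1 overlap it on the opposite strand. Without WT replicate 1 or 2 the adjusted p of BMF in AM against WT cells was 0.161 and 0.287, and without AM replicate 1 or 2 it was 0.190 and 0.228. Without 6WP replicate 1 it was called in 6WP against AM cells, with a log2 fold change of 0.72 (adjusted p = 0.00261).

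The other BH3-only members were not called. BCL2L11, which encodes BIM, was at 46.4 (WT), 37.9 (AM) and 44.7 CPM (6WP). BAD, which binds BCL-XL when it is not phosphorylated, was at 39.4, 56.3 and 52.9 CPM, with 6WP libraries at 64.3 and 41.4 that enclosed both AM libraries. BID, which links CASP8 to mitochondria, was at 12.1, 13.7 and 13.9 CPM, and BIK at 4.52, 6.12 and 4.14 CPM. HRK had only 9 and 13 counts in WT, 9 and 11 in AM, and 17 and 30 in 6WP libraries. Both 6WP libraries were highest in HRK, at a log2 fold change of 1.24 against AM cells (95% interval 0.22 to 2.27, adjusted p = 0.0819 in edgeR's quasi-likelihood test) and 0.74 against WT cells (interval -0.27 to 1.75).

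In the apoptosome, APAF1, the scaffold that cytochrome c opens, was lower in both groups kept for 6 weeks. APAF1 was at 33.6 and 33.7 CPM in WT, 24.9 and 20.9 in AM, and 18.2 and 21.6 in 6WP cells. The 4 later libraries were all below the WT libraries, and AM and 6WP libraries overlapped. APAF1 fell in 6WP against WT cells (log2 fold change -0.76, SE 0.15, adjusted p = 0.0394 in edgeR's quasi-likelihood test), and was the only member called there. It also fell in AM against WT cells, by 0.56 on the log2 scale (SE 0.15, adjusted p = 0.0360). In 6WP against AM cells its log2 fold change was -0.20 (95% interval -0.54 to 0.13, adjusted p = 0.344). APAF1 is on chromosome 12 from 98645290 to 98735433, where ANKS1B has overlapping exons on the opposite strand. In 6WP against WT cells the log2 fold change of APAF1 lay between -0.92 and -0.66 over all alternatives. The call was lost without WT replicate 1 (adjusted p = 0.384), WT replicate 2 (0.274), AM replicate 1 (0.0954) or AM replicate 2 (0.0940), and with only the 2 groups compared (0.0951). In AM against WT cells it was lost without any of the same libraries, at adjusted p between 0.108 and 0.255.

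CYCS was at 595 and 516 CPM in WT, 757 and 733 in AM, and 595 and 475 in 6WP cells. Both AM libraries were above the other 4, and WT and 6WP libraries overlapped. CYCS fell in 6WP against AM cells, with a log2 fold change of -0.48 (SE 0.14, adjusted p = 0.0440 in edgeR's quasi-likelihood test). In AM against WT cells its log2 fold change was 0.42 (SE 0.14, adjusted p = 0.0698). CASP9, the initiator caspase that the apoptosome activates, was at 12.2, 11.9 and 13.5 CPM in WT, AM and 6WP cells and was not called. The ratio of APAF1 to CASP9 in CPM per kb was 1.87 ± 0.000678 (WT), 1.302 ± 0.0526 (AM) and 1.01 ± 0.246 (6WP, SD with n = 2 each). CYCS is on chromosome 7 from 25118656 to 25125260, and the genome holds many near-identical processed pseudogenes of it, among which the counting could split reads. It lost its call with upper quartile normalization (adjusted p = 0.0745), with library size only (0.0687), without WT replicate 1 (0.0917), WT replicate 2 (0.0808), AM replicate 1 (0.224) or AM replicate 2 (0.189), and with only the 2 groups compared (0.0847). Without 6WP replicate 1 or 2 it was called in AM against WT cells (adjusted p = 0.00130 and 0.000686).

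Among the other caspases, CASP8, the initiator of the death receptor route, was lower in AM cells than in either other group. CASP8 was at 2.90 and 3.40 CPM in WT, 1.59 and 1.21 in AM, and 4.01 and 3.17 in 6WP cells, from 65 and 74, 37 and 41, and 111 and 90 counts. Both AM libraries were lowest, and WT and 6WP libraries overlapped. CASP8 fell in AM against WT cells (log2 fold change -1.18, SE 0.28, adjusted p = 0.0265 in edgeR's quasi-likelihood test), and rose in 6WP against AM cells, with a log2 fold change of 1.37 (SE 0.27, adjusted p = 0.0136). CASP8 was at 0.19 (95% interval -0.40 to 0.78) on the log2 scale in 6WP against WT cells. CFLAR encodes a catalytically inactive relative that competes with CASP8 for FADD. The ratio of CASP8 to CFLAR in CPM per kb was 0.677 ± 0.00927 (WT), 0.362 ± 0.0386 (AM) and 0.749 ± 0.292 (6WP). Its size depends on the exon lengths used, 7237 bases for CASP8 and 22478 for CFLAR. In CPM without length, CFLAR stood far above CASP8, at 14.4 (WT), 11.9 (AM) and 15.6 (6WP). CASP8 is on chromosome 2 from 201233443 to 201361836 and shares exon sequence with an unnamed gene on the same strand. The fall in AM cells lost its call without WT replicate 1 (adjusted p = 0.128), WT replicate 2 (0.198), AM replicate 1 (0.102) or AM replicate 2 (0.212), and the rise in 6WP against AM cells without AM replicate 1 (0.0808) or AM replicate 2 (0.128).

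CASP2, a caspase linked to the DNA damage response, was at 90.5 and 91.3 CPM in WT and 90.8 and 92.9 in AM cells, but at 50.9 and 88.6 in the 6WP libraries. 6WP replicate 1 was thus far below the other 5 libraries, and this was the widest difference between 6WP replicates among the members, 0.80 on the log2 scale. CASP2 was not called, with a log2 fold change of -0.38 in 6WP against WT cells (SE 0.22, adjusted p = 0.352 in edgeR's quasi-likelihood test). Without 6WP replicate 2 it was -0.86 (adjusted p = 1.43e-05), and without 6WP replicate 1 it was -0.05. CASP6, an executioner caspase, was at 26.1, 24.2 and 21.3 CPM in WT, AM and 6WP cells, with a 95% interval of -0.59 to 0.00 in 6WP against WT cells. CASP10, a close relative of CASP8, had 4 to 11 counts in every library.

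Of the other mitochondrial proteins released in apoptosis, AIFM1 and DIABLO were higher in AM than in WT cells. AIFM1, a flavoprotein of respiratory chain assembly that can move to the nucleus in cell death, was at 109 and 101 CPM in WT, 153 and 162 in AM, and 84.5 and 97.1 in 6WP cells. Both AM libraries were above all others, and both 6WP libraries were below WT. AIFM1 rose in AM against WT cells (log2 fold change 0.59, SE 0.11, adjusted p = 0.0145 in edgeR's quasi-likelihood test). It fell in 6WP against AM cells, with a log2 fold change of -0.80 (SE 0.12, adjusted p = 0.00546), the smallest adjusted p of any member. Against WT cells, that of 6WP cells was -0.21 (95% interval -0.47 to 0.06). DIABLO, which frees caspases from inhibitor of apoptosis proteins, was at 87.0 and 84.9 CPM in WT, 115 and 126 in AM, and 106 and 96.1 in 6WP cells. The 3 groups did not overlap, with WT lowest and AM highest. DIABLO rose in AM against WT cells (log2 fold change 0.49, SE 0.11, adjusted p = 0.0228), and was at 0.23 in 6WP against WT cells (adjusted p = 0.259).

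AIFM1, on the X chromosome from 130124666 to 130165879, shared no exon with another annotated gene, whereas DIABLO, on chromosome 12 from 122207663 to 122227456, shared exons with B3GNT4 on the opposite strand and with 2 unnamed genes on its own. Without WT replicate 1, WT replicate 2, AM replicate 1 or AM replicate 2, the calls in AM against WT cells were lost, at adjusted p between 0.0978 and 0.153 for AIFM1 and between 0.112 and 0.218 for DIABLO. The call of AIFM1 in 6WP against AM cells was lost without AM replicate 1 (adjusted p = 0.0625) or AM replicate 2 (0.0678). AIFM1 was called in 6WP against WT cells without 6WP replicate 2, with a log2 fold change of -0.34 (adjusted p = 0.0218 in edgeR's quasi-likelihood test), and DIABLO in 6WP against AM cells without 6WP replicate 1, with -0.33 (adjusted p = 0.0136). HTRA2, a serine protease that also binds those inhibitors, was at 56.0, 56.0 and 62.2 CPM in WT, AM and 6WP cells, and ENDOG at 61.8, 59.5 and 73.6 CPM. Neither was called in any comparison.

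All 4 inhibitor of apoptosis proteins among the members had negative log2 fold changes in AM against WT cells, between -1.78 and -0.24. Only BIRC3 was called. BIRC5, an inhibitor of apoptosis protein outside the members, went the other way, at 0.72 (adjusted p = 0.226 in edgeR's quasi-likelihood test). BIRC3, a ubiquitin ligase induced by NF-kappaB, had 26 and 33 counts in WT, 9 and 13 in AM, and 20 and 15 in 6WP libraries, or 1.16 and 1.52, 0.388 and 0.383, and 0.723 and 0.529 CPM. The 3 groups did not overlap, with WT highest and AM lowest. BIRC3 fell in AM against WT cells (log2 fold change -1.78, SE 0.38, adjusted p = 0.0190 in edgeR's quasi-likelihood test), and was at -1.09 in 6WP against WT cells (SE 0.35, adjusted p = 0.126). Its summed counts, 22 in AM and 59 in WT cells, gave a ratio of 0.288 with an exact 95% counting interval of 0.168 to 0.477. BIRC3, on chromosome 11 from 102317484 to 102339403, shares exon positions with an unnamed gene on the opposite strand. Without WT replicate 1, WT replicate 2, AM replicate 1 or AM replicate 2 its adjusted p in AM against WT cells was 0.106, 0.178, 0.121 and 0.163, and without 6WP replicate 1 it was called in 6WP against WT cells (0.0440).

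BIRC2, the closest relative of BIRC3, was at 63.2 and 57.6 CPM in WT, 47.4 and 47.6 in AM, and 67.6 and 57.1 in 6WP cells. Both AM libraries were lowest, at a log2 fold change of -0.35 against WT cells (adjusted p = 0.0876 in edgeR's quasi-likelihood test), and 6WP against AM cells stood at 0.39 (adjusted p = 0.0562). XIAP, which blocks executioner caspases directly, was at 59.8, 45.4 and 53.9 CPM in WT, AM and 6WP cells. The large ubiquitin ligase BIRC6 was at 77.8, 66.0 and 61.1 CPM. Neither XIAP nor BIRC6 was called.

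The adaptors that assemble at death receptors were not called in any comparison. FADD was at 23.4, 25.2 and 23.0 CPM in WT, AM and 6WP cells, with an interval of -0.32 to 0.27 for the log2 fold change of 6WP against WT. TRADD, the adaptor of the TNF receptor, was at 4.58, 5.26 and 6.06 CPM, and CFLAR at 14.4, 11.9 and 15.6 CPM. RIPK1, the kinase that directs this signal to survival or death, was at 38.2 and 36.4 CPM in WT, 36.2 and 36.2 in AM, and 29.5 and 31.3 in 6WP cells. Both 6WP libraries were below the other 4, at a log2 fold change of -0.29 against WT cells (SE 0.11, adjusted p = 0.178 in edgeR's quasi-likelihood test).

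MLKL, the protein that breaches the plasma membrane in necroptosis, had the largest fold change of all members, in AM against WT cells. It had 29 and 25 counts in WT, 5 and 4 in AM, and 10 and 12 in 6WP libraries, or 1.295 and 1.15, 0.215 and 0.118, and 0.362 and 0.423 CPM. The 3 groups did not overlap, with WT highest and AM lowest. MLKL fell in AM against WT cells (log2 fold change -2.91, SE 0.44, adjusted p = 0.00753 in edgeR's quasi-likelihood test). MLKL was at a log2 fold change of -1.63 in 6WP against WT cells (SE 0.38, adjusted p = 0.0639), and in 6WP against AM cells it was 1.28 (SE 0.51, adjusted p = 0.107). The summed counts of 9 in AM and 54 in WT cells gave a ratio of 0.129 with an exact 95% counting interval of 0.0559 to 0.263. AM replicate 2, at 0.118 CPM, was near the detection floor of that library, 0.0850 CPM before TMM normalization. MLKL, on chromosome 16 from 74671855 to 74700960, shared no exon with another annotated gene. Without WT replicate 1, WT replicate 2, AM replicate 1 or AM replicate 2 the call in AM against WT cells was lost (adjusted p = 0.0876, 0.0881, 0.0634 and 0.110). Without 6WP replicate 1 or 6WP replicate 2 MLKL was called in 6WP against WT cells (0.0362 and 0.0219).

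The DNA fragmentation factor, whose nuclease DFFB is held by the chaperone DFFA until caspases cleave it, was not called. DFFA was at 20.8, 17.9 and 20.7 CPM in WT, AM and 6WP cells, and DFFB at 14.0, 13.5 and 11.9 CPM. The interval of the log2 fold change of DFFA in 6WP against WT cells ran from -0.30 to 0.30.

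**Figure D3:**
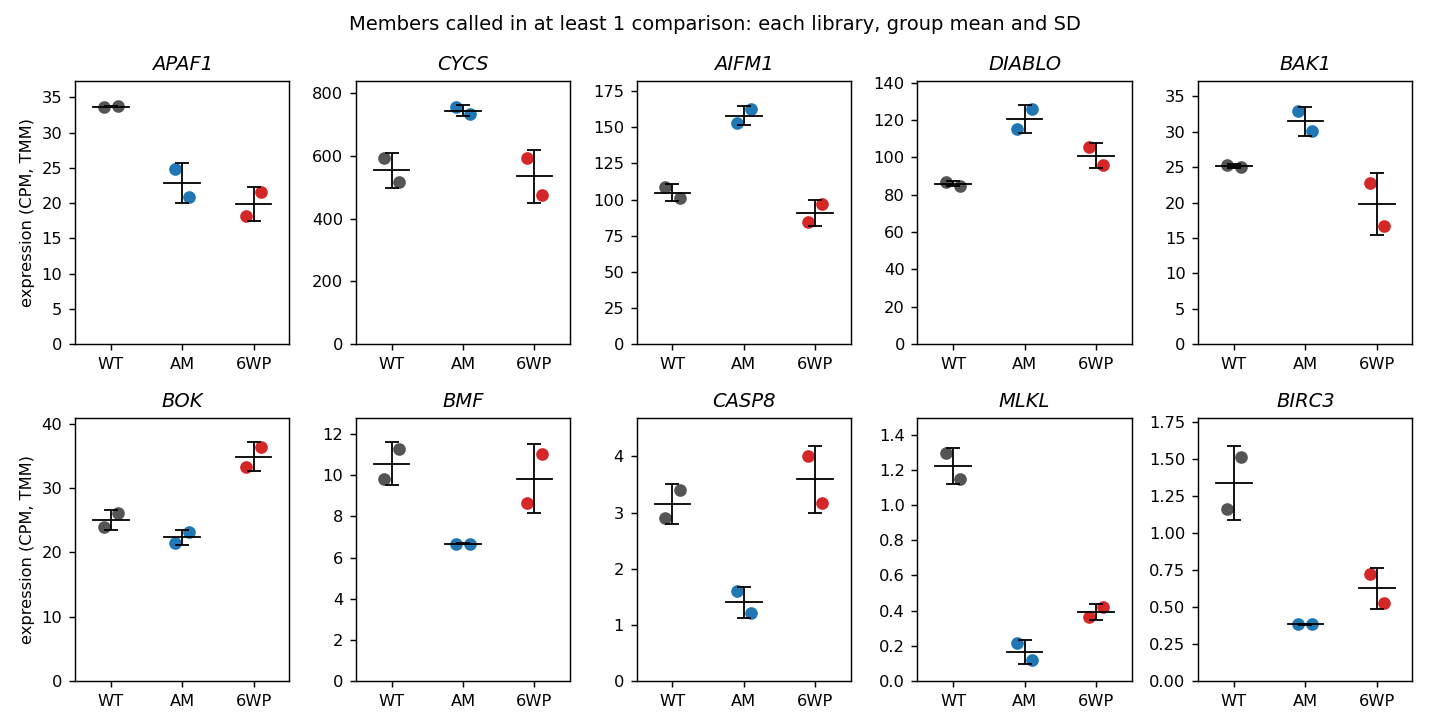
Expression in TMM-normalized CPM of the 10 members called in at least 1 comparison, with each library as a point, the group mean as a horizontal line and the SD (n = 2) as an error bar. Each axis starts at 0. AM cells stand highest in CYCS, AIFM1, DIABLO and BAK1 and lowest in BMF, CASP8, MLKL, BIRC3 and BOK. APAF1 is highest in WT cells and BOK is highest in 6WP cells.

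As the plot of the called members shows, both AM libraries lay above the other groups in CYCS, AIFM1, DIABLO and BAK1. They lay below the other groups in BMF, CASP8, MLKL, BIRC3 and, by a small margin from WT cells, BOK. APAF1 was the exception, with AM and 6WP libraries overlapping. The 10 were picked by their calls, and all 10 were called in a comparison that involves the AM libraries. The choice of genes thus favours AM extremes, and no result about AM cells is drawn from this pattern. How often AM cells formed such an extreme over all tested genes was not counted. For the members that were not called, the 95% interval of the fold change stayed within 2-fold for 29 of 33 in 6WP against WT, 24 of 29 in 6WP against AM and 24 of 27 in AM against WT cells. It stayed within 1.5-fold for 18, 16 and 15 of these. The 4 uncalled members whose interval reached past 2-fold in 6WP against WT cells were BIRC3, CASP10, HRK and MLKL.

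Promoter sequence was examined because the called members include genes that moved in the same direction in AM cells. RefSeq windows on GRCh38.p14, from 250 bases before to 50 bases after the start site, were matched for 28 of the 35 members. BCL2L2, MCL1, BIK, CASP10, TRADD, RIPK3 and DFFB were not matched. The stretches shown belong to the 3 members called in 2 comparisons and to MLKL, which had the largest fold change. Each is the longest run before the start site that lies outside all exons of GENCODE, written 5′ to 3′ on the strand of the gene with CG dinucleotides in capitals. They lie at chr12:98645114-98645289 on the plus strand for APAF1, chrX:130165880-130165936 on the minus strand for AIFM1, chr2:201233213-201233442 on the plus strand for CASP8 and chr16:74700961-74701112 on the minus strand for MLKL.
APAF1: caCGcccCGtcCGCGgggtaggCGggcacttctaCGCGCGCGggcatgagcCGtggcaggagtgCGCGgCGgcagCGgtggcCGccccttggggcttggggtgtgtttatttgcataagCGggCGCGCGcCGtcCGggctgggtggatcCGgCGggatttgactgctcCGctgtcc
AIFM1: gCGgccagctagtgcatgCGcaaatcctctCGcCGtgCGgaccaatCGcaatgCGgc
CASP8: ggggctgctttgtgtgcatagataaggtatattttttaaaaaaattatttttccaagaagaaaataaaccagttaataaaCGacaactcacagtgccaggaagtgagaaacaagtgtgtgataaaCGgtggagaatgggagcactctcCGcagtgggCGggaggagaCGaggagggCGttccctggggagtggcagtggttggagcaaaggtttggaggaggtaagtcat
MLKL: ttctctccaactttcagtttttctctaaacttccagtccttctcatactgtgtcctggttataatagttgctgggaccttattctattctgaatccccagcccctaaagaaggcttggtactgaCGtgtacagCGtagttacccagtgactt

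The windows differ in their content of CG dinucleotides, the sites of DNA methylation. In the 250 bases before the start site, APAF1 had 38 such sites, AIFM1 23, CASP8 6 and MLKL 5, beside a median of 11 over all windows of the table. Of the other called members, CYCS had 31, BMF 26, DIABLO 22, BOK 17, BIRC3 11 and BAK1 5. Members that fell in AM against WT cells therefore had starts with more CG sites than this median (APAF1, BMF), equal to it (BIRC3) and fewer (CASP8, MLKL). These counts are relative to the RefSeq start and include some annotated gene sequence. All 250 bases of BOK and of DIABLO lie within their own GENCODE genes, and 98 of those of MLKL in its own exons. The MLKL stretch outside exons held 2 CG sites. The C/EBP-ATF composite element, searched as TGATGNAA on both strands of the full window, was found in 1 of the 28 member windows, that of HRK, 75 bases before the start site as TGATGTAA. It was found in 3.62% of the 35116 windows of the table. The E2F elements TTTGGCGC and TTTCCCGC were found in 0 of the 28 member windows and in 2.27% of all windows. These are matches of letters, and binding was not measured.

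Other genes of the pathway were counted in the same fit, from lists compiled by role. Of 70 such genes in the table, 55 were tested. In 6WP against WT cells 2 were called higher (3.64%, against 1.63% of all tested genes) and 0 lower. At an unadjusted p under 0.05, 11 were higher and 3 lower. At least 3136 of the 14672 tested genes passed that threshold there. DESeq2's Wald test called 5 of the other pathway genes in all and the likelihood ratio test of edgeR 8. These tests called 7.32% and 10.2% of all tested genes. In 6WP against AM cells 8 were called higher (14.5%, against 11.7% of all genes) and 7 lower (12.7%, against 9.68%). The split was 10 to 4 with upper quartile normalization and 9 to 4 with library size only. Of all tested genes, 15.5% were called higher and 7.24% lower with the former, and 12.9% and 7.92% with the latter. In AM against WT cells 7 were called higher (12.7%, against 7.74% of all genes) and 4 lower (7.27%, against 9.93%). The split was 4 to 9 with upper quartile normalization and 4 to 6 with library size only. Of all tested genes, 4.7% were called higher and 12.5% lower with the former, and 4.97% and 11.3% with the latter. With libraries left out in turn, the numbers called moved as the share of all tested genes did. The number called fell to 0 in 6WP against AM cells without either AM library, to 3 without either WT library, and in AM against WT cells to 1 without any WT or AM library. It rose to 25 and 31 in these comparisons without 6WP replicate 1, and to 23 and 30 without 6WP replicate 2. For 6WP against WT cells the number was 17 without 6WP replicate 1, 12 without 6WP replicate 2, 1 without either AM library and 0 without either WT library.

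Of 11 tested death ligands and receptors, 4 were called higher and 0 lower in 6WP against AM cells (5 and 0 at an unadjusted p under 0.05). At least 5376 of the 14672 tested genes passed the unadjusted threshold there. The 4 are 36.4% of the list, against 11.7% of all tested genes. With only the 2 groups compared, 2 of the 54 other pathway genes tested, over all lists together, were called higher there and 1 lower. That fit called 9.07% of all tested genes. In AM against WT cells 1 was called higher and 1 lower (9.09% each, against 7.74% and 9.93%), and 1 and 3 with upper quartile normalization. TNFSF10, which encodes the death ligand TRAIL, rose from 0.625 and 1.19 CPM in WT to 7.41 and 6.36 CPM in AM cells, a log2 fold change of 2.91 (SE 0.61, adjusted p = 0.0183 in edgeR's quasi-likelihood test). The 6WP libraries of TNFSF10 were far apart, at 1.27 and 4.97 CPM. Its receptor TNFRSF10B was at 87.2 ± 2.40 (WT), 74.9 ± 7.39 (AM) and 117 ± 5.38 CPM (6WP, SD with n = 2 each) and rose in 6WP against AM cells, with a log2 fold change of 0.64 (adjusted p = 0.00983). The decoy receptors TNFRSF10D and TNFRSF11B also rose there, by log2 fold changes of 0.67 (adjusted p = 0.0412) and 1.60 (0.0373), as did the neurotrophin receptor NGFR, by 1.78 (0.0380). Counts were low for 2 of these genes. NGFR had 7 and 6 counts in AM and 27 and 18 in 6WP libraries, and TNFRSF11B 15 and 17 in AM and 63 and 33 in 6WP libraries. TNFRSF11B fell in AM against WT cells (log2 fold change -2.18, adjusted p = 0.0155). FAS, at 10.3, 7.45 and 6.08 CPM in WT, AM and 6WP cells, was not called, with a log2 fold change of -0.76 in 6WP against WT cells (adjusted p = 0.104).

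In 6WP against WT cells 1 of 13 tested genes of TNF receptor complexes was called higher (7.69%, against 1.63% of all genes). In 6WP against AM cells 2 were called higher (15.4%) and 1 lower (7.69%), and in AM against WT cells 1 higher and 1 lower (7.69% each). The shares in the latter 2 comparisons were near those of all tested genes. Those were 11.7% and 9.68% in 6WP against AM and 7.74% and 9.93% in AM against WT cells. With upper quartile normalization the splits were 3 to 0 and 0 to 3. RBCK1, a subunit of the linear ubiquitin ligase, rose from 53.3 ± 6.71 (WT) to 101 ± 20.4 CPM (6WP), a log2 fold change of 0.92 (adjusted p = 0.0306 in edgeR's quasi-likelihood test), and was at 66.7 ± 4.14 in AM cells, with 0.59 in 6WP against AM cells (adjusted p = 0.0365). The adaptor TRAF1 rose in 6WP against AM cells, with a log2 fold change of 1.03 (adjusted p = 0.0383), and TRAF2 fell there, with -0.47 (0.0436). TRAF2 rose (log2 fold change 0.50, adjusted p = 0.0408) and TRAF5 fell (-0.66, 0.0292) in AM against WT cells.

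Of 17 other BCL2-related and mitochondrial genes tested, 5 were called lower and 0 higher in 6WP against AM cells (7 and 2 at an unadjusted p under 0.05), and 3 higher and 0 lower in AM against WT cells (6 and 0). The unadjusted threshold was passed by at least 5376 and 4892 of the 14672 tested genes in these comparisons. The 5 are 29.4% of the list, against 9.68% of all tested genes, and the 3 are 17.6%, against 7.74%. With only the 2 groups compared, just 1 of the 54 other pathway genes tested, over all lists together, was called lower in 6WP against AM cells. With upper quartile normalization 4 were called lower and 1 higher in 6WP against AM cells, and 1 higher and 0 lower in AM against WT cells. BAX, the pore-forming partner of BAK1, was at 51.3 ± 5.94 (WT), 67.9 ± 0.613 (AM) and 46.0 ± 5.20 CPM (6WP, SD with n = 2 each). BAX fell in 6WP against AM cells, with a log2 fold change of -0.56 (SE 0.13, adjusted p = 0.0227 in edgeR's quasi-likelihood test), as did BNIP3, a BH3 protein of mitochondrial turnover (-0.57, 0.0190), BCAP31, a membrane protein cleaved by CASP8 (-0.51, 0.0118), the outer membrane channel VDAC1 (-0.41, 0.0250) and MTCH2, which receives BID at mitochondria (-0.59, 0.0358). BNIP3, BCAP31 and MTCH2 rose in AM against WT cells, with log2 fold changes of 0.71, 0.37 and 0.57 (adjusted p = 0.0117, 0.0371 and 0.0431). The BH3-only genes BBC3 and PMAIP1, classical targets of p53, had their highest means in 6WP cells, at 41.6 ± 14.2 and 29.3 ± 2.32 CPM, but were not called in 6WP against WT cells (log2 fold change 0.56 and 0.82, adjusted p = 0.202 and 0.0766).

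Of 14 tested caspases and regulators outside the members, 1 was called higher in 6WP against WT cells (7.14%, against 1.63% of all tested genes). In 6WP against AM cells 2 were called higher and 1 lower, and in AM against WT cells 2 higher and 2 lower. The shares in 6WP against AM cells, 14.3% higher and 7.14% lower, were near the 11.7% and 9.68% of all tested genes, and in AM against WT cells they were 14.3% each, against 7.74% and 9.93%. GSDMD, a gasdermin that forms pores in the plasma membrane after cleavage by inflammatory caspases, rose in both groups kept for 6 weeks. GSDMD was at 49.5 and 53.9 CPM in WT, 117 and 129 in AM, and 105 and 105 in 6WP cells. Its log2 fold change was 1.02 in 6WP against WT (SE 0.11, adjusted p = 0.00625 in edgeR's quasi-likelihood test) and 1.25 in AM against WT cells (SE 0.11, adjusted p = 0.00178). DFNA5, the older symbol of gasdermin E, rose in 6WP against AM cells, with a log2 fold change of 1.09 (adjusted p = 0.0113). CASP4, an inflammatory caspase, had 12 and 22 counts in WT, 3 and 2 in AM, and 11 and 15 in 6WP libraries, and was called lower in AM against WT and higher in 6WP against AM cells. The summed counts of CASP4, 5 in AM and 34 in WT cells, gave a ratio of 0.114 with an exact 95% counting interval of 0.0347 to 0.292. NLRP1, a sensor of the inflammasome, fell in AM against WT cells (log2 fold change -1.33, adjusted p = 0.0115), and AVEN, which binds APAF1, rose there, with 0.63 (0.0306). BIRC5, an inhibitor of apoptosis protein that also serves in cell division, was at 184 (WT), 304 (AM) and 138 CPM (6WP). It had 5700 and 1990 counts in the 6WP libraries and was not called.

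**Figure D4:**
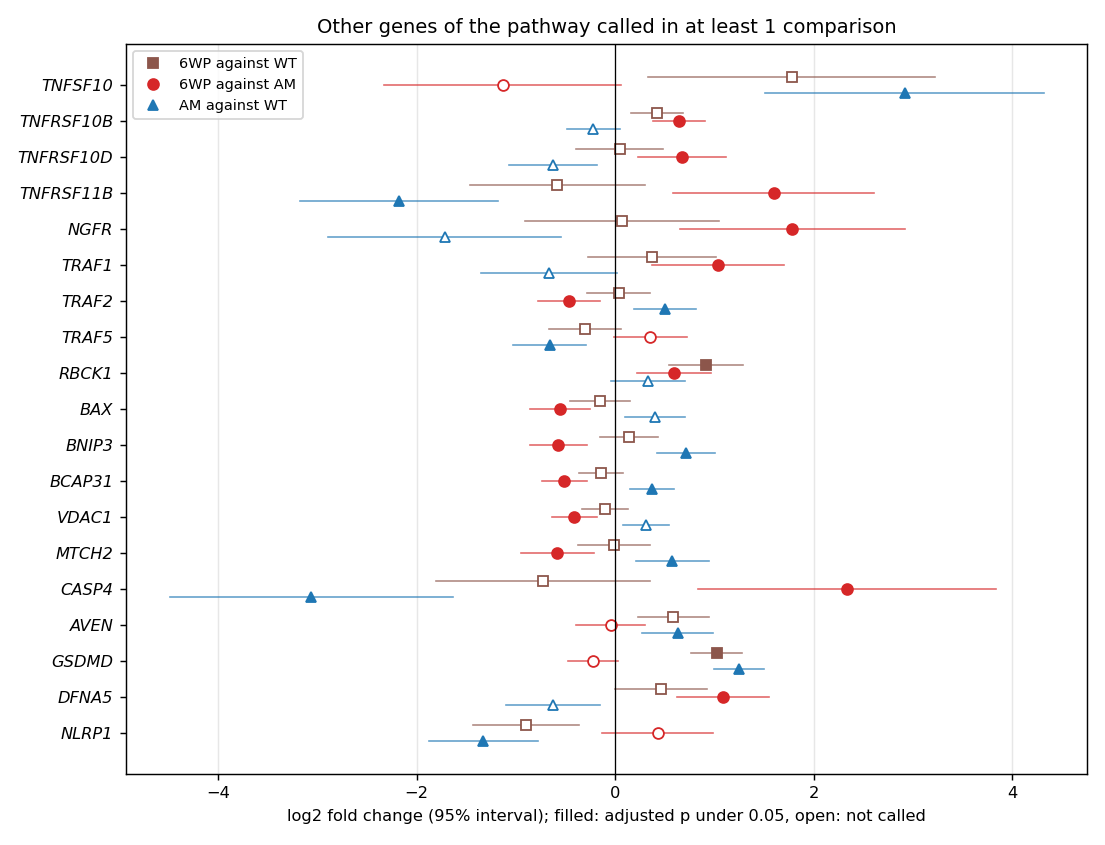
Log2 fold change (symbols) with 95% interval (lines) of 19 other pathway genes called in at least 1 comparison, for 6WP against WT (squares), 6WP against AM (circles) and AM against WT cells (triangles). Filled symbols mark an adjusted p under 0.05 in edgeR's quasi-likelihood test. GSDMD and RBCK1 are the only genes drawn with a filled square, and many genes have circles and triangles on opposite sides of 0.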

How the data were processed

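RNA from 2 libraries each of WT, AM and 6WP cells was sequenced as single end reads after a stranded library preparation. The authors deposited whole-number read counts for each gene symbol and library, neither normalized nor pooled. The submitters' processing notes list STAR 2.5.3a, StringTie 1.3.3, featureCounts 1.5.3, edgeR 3.22.3, R 3.5.0 and the hg38 build. The strand setting and gene annotation of the counting are not given in the sources used here.

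From the counts, genes were filtered with filterByExpr and TMM factors computed in edgeR 4.0.16 (R 4.3.3). The quasi-likelihood fit used the 6 libraries together and had the group as its only term, so the 3 groups share their spread estimate. The common dispersion was 0.0173. Tests were two-sided and adjusted by the Benjamini-Hochberg method over all 14672 tested genes. Intervals of fold changes are 95% intervals from this model, and counting intervals cover counting error only. DESeq2 1.42.0 served as an alternative test, with library totals between 21222201 and 35311945. Positions and exon lengths were from GENCODE 44 on GRCh38, and the annotation used in counting may differ. Motifs were searched on both strands. The pipeline was tested on simulated data.

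The members and the pathway lists were chosen with earlier results of these data known. All members are named, those called in any comparison with every library, and of the other pathway genes the called ones are named, except that some results are not reported here by name. FAS, BBC3, PMAIP1 and BIRC5 were named after their values were seen.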

Additional observations from a re-analysis of the deposited data

How the results depend on the processing

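No direction of a named member reversed in a comparison in which it was called, under any of the 15 alternatives that gave it a value. Counts of called members moved by more than 1.5 times as follows. In 6WP against WT cells 4 members were called with the likelihood ratio test of edgeR and 0 with only the 2 groups compared. These settings called 10.2% and 0.661% of all tested genes. In 6WP against AM cells 8 were called with the likelihood ratio test and 3 with only the 2 groups compared, where 27.4% and 9.07% of all tested genes were. In AM against WT cells 15 were called with only the 2 groups compared, a fit in which 46.5% of all tested genes were called. For the other pathway genes, 6WP against WT gave 4 with no filter and 5 with the Wald test of DESeq2. It gave 8 with the likelihood ratio test and 1 with only the 2 groups compared. The shares of all tested genes called in these settings were, in the same order, 4.37%, 7.32%, 10.2% and 0.661%. With only the 2 groups compared, 6WP against AM gave 3 and AM against WT gave 30, where 9.07% and 46.5% of all tested genes were called. Over the libraries left out in turn, members called ranged from 0 to 12 in 6WP against WT, 0 to 13 in 6WP against AM and 0 to 15 in AM against WT, and other pathway genes from 0 to 17, 0 to 25 and 1 to 31. A group left with 1 library was assumed to vary like the others.

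With the replicate number as a block, 0 members were called in 6WP against WT cells, and APAF1 had an adjusted p of 0.0504 there. The deviations of same-numbered libraries had correlations across genes of 0.0395, 0.0873 and -0.0206, so the libraries share only a number. The block left the counts of members called in the other comparisons at 5 and 7. It gave 5 higher and 6 lower other pathway genes in AM against WT cells.

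Members under about 1 CPM (MLKL, BIRC3, HRK, CASP10) are limited by counting error. DESeq2 size factors and a minimum of 10 counts per library kept each count of called members within 1.5 times. That minimum left 30 members tested, and 5 rather than 7 called in AM against WT cells. MLKL and BIRC3, with as few as 4 and 9 counts in an AM library, were no longer tested.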
